A study of Mus musculus with 4 samples.

Results

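The cytoplasmic ribosomal protein genes were followed across 4 arrays of mouse small intestinal epithelium. Members were genes with a platform symbol of Rpl or Rps and a number, with no ending or with a, l, x or l and a number after it. The stalk genes Rplp0 and Rplp2 and the laminin receptor gene Rpsa were added. Symbols with other endings, S6 kinase genes, binding proteins and pseudogenes were left out. A gene counted only where a probe set was named for it alone, and it was represented by the probe set with the highest mean signal. This gave 48 of 18193 genes, 26 of the large and 22 of the small subunit, measured by 104 probe sets. A further 28 symbols that met the name rule, Rplp1 among them, were found only on probe sets that list several genes and were not used.

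The arrays were hybridised with RNA of epithelial cells that had been loosened with EDTA and collected by hand from the small intestine of C57BL/6J mice, adult animals of 10 weeks that were healthy and specific pathogen-free. One group of 2 arrays was AP-1B+/-, called heterozygous here, and the other group of 2 arrays was AP-1B-/-, called knockout. AP-1B is a clathrin adaptor complex of polarised epithelia that directs newly made and recycling receptors to the basolateral membrane. The labels give neither the design of the allele nor a Cre driver. No wild-type array was analysed here. Whether the arrays of a group stem from different mice is not in the labels. The 2 arrays of each group differed in Xist and in the Y-linked Eif2s3y, as given below, which 2 arrays of the same RNA would not. A p-value reflects the spread among these arrays only, and that spread may in part be technical. Where values come in pairs, array 1 of the group is given before array 2, and where 4 values follow each other, those of heterozygous 1 and 2 come before those of knockout 1 and 2. Signals are multiples of the array median on a linear scale, and probe sets bind with unequal strength, so levels are compared between arrays for 1 probe set and not between genes.

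Ribosomal proteins line the outside of the ribosomal RNA core of the 2 subunits, the small one decoding the messenger RNA and the large one joining the amino acids. Their messengers are among the most abundant of any cell and most begin with a terminal oligopyrimidine tract, or TOP, through which growth signalling adjusts their translation as a group. In the intestine, dividing crypt cells build ribosomes for growth, whereas enterocytes on the villus have left the cell cycle.

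The array labels were first checked with Ap1m2, the gene of the mu subunit that defines AP-1B. Its signal was 19.9 and 4.33 on the heterozygous and 2.49 and 22.3 on the knockout arrays (log2 difference of knockout minus heterozygous −0.28, standard error 0.89, limma, Benjamini-Hochberg adjusted p = 0.999868). It was thus high on knockout 2 and low on heterozygous 2, against both labels, and every direction given here is by label. The 75th percentile of all signals was 4.13 and 4.27 on heterozygous 1 and knockout 2 and 5.54 and 5.57 on heterozygous 2 and knockout 1, so that genes above the median read higher on the latter pair as a whole. All 9 epithelial markers were present on every array, with no signal under 144.6 (Cdh1 on knockout 2), while the 2 erythroid markers measured summed to at most 0.739 on any array.

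The annotated starts of members were searched for short sequence features, which the choice by name had not used. RefSeq promoter windows on GRCm38.p6 were found for 42 of the 48 genes and held 50 starts. A TOP start, taken here as a C at the first transcribed base with each of the next 4 bases a C or T on the gene's strand, was found at 8 of these starts (16%) against 823 of the 32851 starts of all genes (2.51%). The heptamer CCGGAAG, on either strand, was in 20 of the 50 member windows (40%) and in 8.86% of all windows. GGGCGG was in 52.0% and 35.7%, AAGATGGC in 8.0% and 2.75%, and TATAAA in 12% and 13.6%, again on either strand. GGGCGG was thus the one feature found in most member windows, and TATAAA was no more frequent in them than in all windows. Those matches describe the letters only and were not tested. Here are the 20 bases before and 20 bases after each of the 8 TOP starts, shown because the tract is the feature by which these messengers are usually recognised, with capitals marking the unbroken run of C and T from the first transcribed base.
Rpl35: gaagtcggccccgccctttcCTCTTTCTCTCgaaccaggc
Rps27: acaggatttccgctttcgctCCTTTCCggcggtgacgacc
Rps6: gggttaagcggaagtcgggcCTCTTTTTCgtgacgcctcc
Rplp2: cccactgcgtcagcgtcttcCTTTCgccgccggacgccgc
Rpl14: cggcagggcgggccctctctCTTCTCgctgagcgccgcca
Rpl38: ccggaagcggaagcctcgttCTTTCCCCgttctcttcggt
Rps10: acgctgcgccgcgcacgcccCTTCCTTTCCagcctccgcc
Rps18: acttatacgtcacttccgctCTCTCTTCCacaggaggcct

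These windows lie at chr2:39005112-39005151 on the minus strand for Rpl35, chr3:90213629-90213668 on the minus strand for Rps27 and chr4:86857348-86857387 on the minus strand for Rps6. Those of Rplp2, Rpl14 and Rpl38 are on the plus strand at chr7:141447631-141447670, chr9:120571497-120571536 and chr11:114668560-114668599. Those of Rps10 and Rps18 are on the minus strand at chr17:27635225-27635264 and chr17:33955646-33955685. The run was longest in Rpl35, at 11 bases, and shortest in Rplp2, at 5. Annotated starts are approximate, and a start moved by a single base can make or break such a match.

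Of the 48 genes, 45 had a mean signal of at least 0.983, the median over all probe sets, and were kept, among 11326 genes kept in all. The 3 that fell below were Rpl3l, the paralog of skeletal muscle and heart, Rpl39l, the paralog of testis, and the 1-gene probe set of Rps16. Rpl3l had 0.337 and 0.252 on the heterozygous and 0.152 and 0.611 on the knockout arrays, and Rpl39l had 0.236, 0.298, 0.625 and 0.016 in the same order, all below the array median. For 35 members the mean signal was 100 or more, and the other 13 were dimmer. Of those 13, 9 also stood on a probe set that lists several genes and had a mean signal of at least 100. That signal may come from any of the genes listed. A low value of these 9 thus describes the 1-gene probe set and does not show that the gene as a whole is low. Rps16 is such a case, with 0.026, 0.205, 0.10 and 0.018 on its 1-gene probe set. Rps4l, Rpl7l1, Rpl3l and Rpl39l stood on no probe set of several genes.

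**Figure D1:**
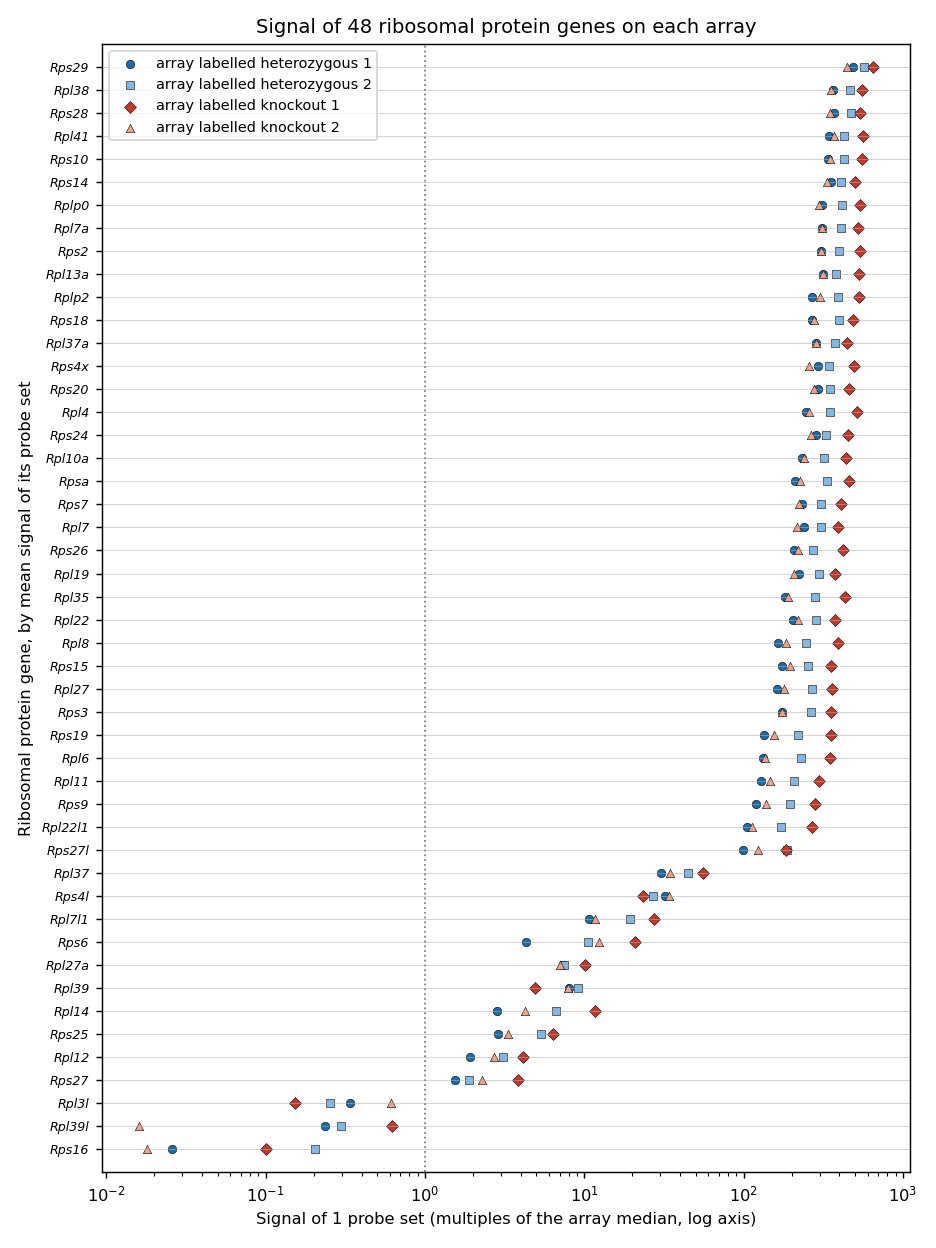
Signal of each of the 48 genes on each array, in multiples of the array median on a log axis, with genes ordered by mean signal and the dotted line at the array median. Knockout 1 was the highest array for 42 of the 45 genes kept, and heterozygous 1 and knockout 2 lie close together, while the 3 lowest genes stay below the median on all arrays.

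The members had the same order of arrays almost throughout, and it did not follow the labels. The median signal of the 45 genes kept was 208 and 285 on the heterozygous and 393 and 217 on the knockout arrays, where the median of all genes kept was 6.09, 8.76, 8.69 and 6.36. Knockout 1 was the highest array for 42 of 45 members, against 42.6% of all genes kept. For 40 of 45, knockout 1 came first, heterozygous 2 second and the other two lower, against 34.8% of all genes kept. Heterozygous 1 and knockout 2 lay within 1.2-fold of each other for 40 members. They were also close for most of all genes kept. There the log2 difference of knockout 2 from heterozygous 1 ran from −0.263 at the 18th percentile to 0.258 at the 77th, about 1.2-fold either way.

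Set against heterozygous 1, the median log2 difference of members was 0.46 on heterozygous 2, 0.87 on knockout 1 and 0.06 on knockout 2, while that of all genes kept was 0.45, 0.40 and 0.03. On this scale the median of members lay next to that of all genes on heterozygous 2 and above it on knockout 1. Knockout 1 had at least 1.5 times the signal of heterozygous 1 at 39 of 45 members, against 41.7% of all genes kept, and at least 2 times at 19, against 22.6%. Quantile normalization gives all arrays the same distribution. After it the medians were 0.25, 0.44 and 0.16 for members and 0.03, 0.03 and 0.01 for all genes kept. The members thus lay above all genes on heterozygous 2 and on knockout 2 as well. Heterozygous 1 was then the lowest array for 38 of 45 members, against 26.9% of all genes kept. With deposited values it was the lowest for 29, against 41.5%. After quantile normalization the closeness of heterozygous 1 and knockout 2 was thus less marked for members. Knockout 1 was the highest array on that scale for 40 of 45 members, against 35.5% of genes. The full order held for 29, against 20.3%. These are differences between single arrays and have no test.

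**Figure D2:**
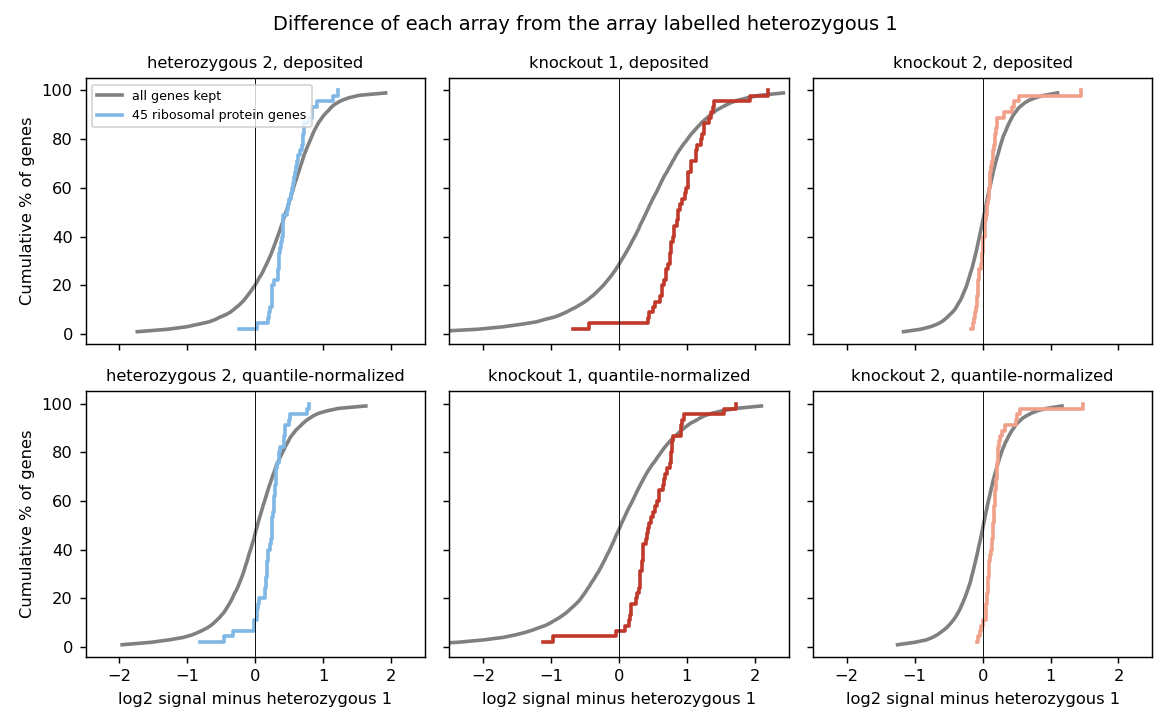
Cumulative percentage of genes against the log2 difference of heterozygous 2, knockout 1 and knockout 2 from heterozygous 1, with deposited values above and quantile-normalized values below. The grey curve holds all 11326 genes kept (1st to 99th percentile) and the coloured steps the 45 members, whose median on knockout 1 was 0.87 with deposited and 0.44 with quantile-normalized values.

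Markers of proliferation and of other cells also differed between the arrays. The summed signal of 9 proliferation genes was 138 and 224 on the heterozygous and 445 and 142 on the knockout arrays, the same order of the highest arrays as for the members. The 8 T cell and intraepithelial lymphocyte markers summed to 469, 92.8, 12.8 and 283 and were all lowest on knockout 1 (20.7% of all genes kept were), with Cd3e at 8.09, 0.296, 0.211 and 5.88. Myeloid markers summed to 76.2, 25.6, 26.4 and 30.8, and stromal and muscle markers to 15.4, 14.2, 21.6 and 19.4. The 4 B and plasma cell markers summed to 212, 39.8, 38.2 and 46.2, nearly all of it from Jchain with 205, 34.9, 34.1 and 39.6, while Cd79b had 1.25, 1.53, 2.18 and 1.83 and Cd79a 1.57, 1.43, 0.768 and 2.81. The 4 pancreatic acinar markers summed to 0.48, 10.0, 0.919 and 52.8. Crypt stem cell markers summed to 141, 107, 128 and 142, most of it from Olfm4. The 5 mature enterocyte markers summed to 2390.0, 1960.0, 1900.0 and 1880.0, mostly from Apoa1, Apoa4 and Alpi, whereas the brush border enzymes Lct, with 312, 82.3, 3.97 and 237, and Mme, with 161, 96.6, 25.8 and 108, were lowest on knockout 1, where most members were highest. After quantile normalization all 5 were lowest there, against 34.6% of all genes kept. The part of these cells in the members' values was not tested. In RNA of a mixed isolate, fewer cells of a type and less RNA per cell cannot be told apart.

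Between the labelled groups no member passed the test. By limma with Benjamini-Hochberg adjustment, 0 of 22519 probe sets passed at 0.05 (0%), and 170 (0.755%) had an unadjusted p under 0.05, 67 higher and 103 lower by label, none of them a representative probe set of a member. The lowest unadjusted p of a member, 0.0616, belonged to Rps6. By label, 43 of 45 members had a higher mean on the knockout arrays, against 50.5% of all genes kept, with a median log2 difference of 0.24 against 0.004. This count and this median fell most without knockout 1, and they also fell without heterozygous 1. Without knockout 1, 4 of 45 were higher and the median was −0.19, next to −0.18 for all genes kept. Without heterozygous 1 the count was 25 and the median 0.008 (all genes −0.225), without heterozygous 2 they were 43 and 0.48 (all genes 0.225), and without knockout 2 they were 43 and 0.63 (all genes 0.19).

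The labelled groups did not overlap for 2 members in the higher direction, Rps6 and Rps27 (against 5.51% of all genes kept), and for 1 in the lower direction, Rpl39 (against 10.9%). Only 3 of the 45 differences, those of Rps6, Rps27 and Rpl14, were larger than their standard error. The differences ran from −0.44 for Rpl39 to 1.21 for Rps6, with standard errors of 0.33 to 0.61.

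**Figure D3:**
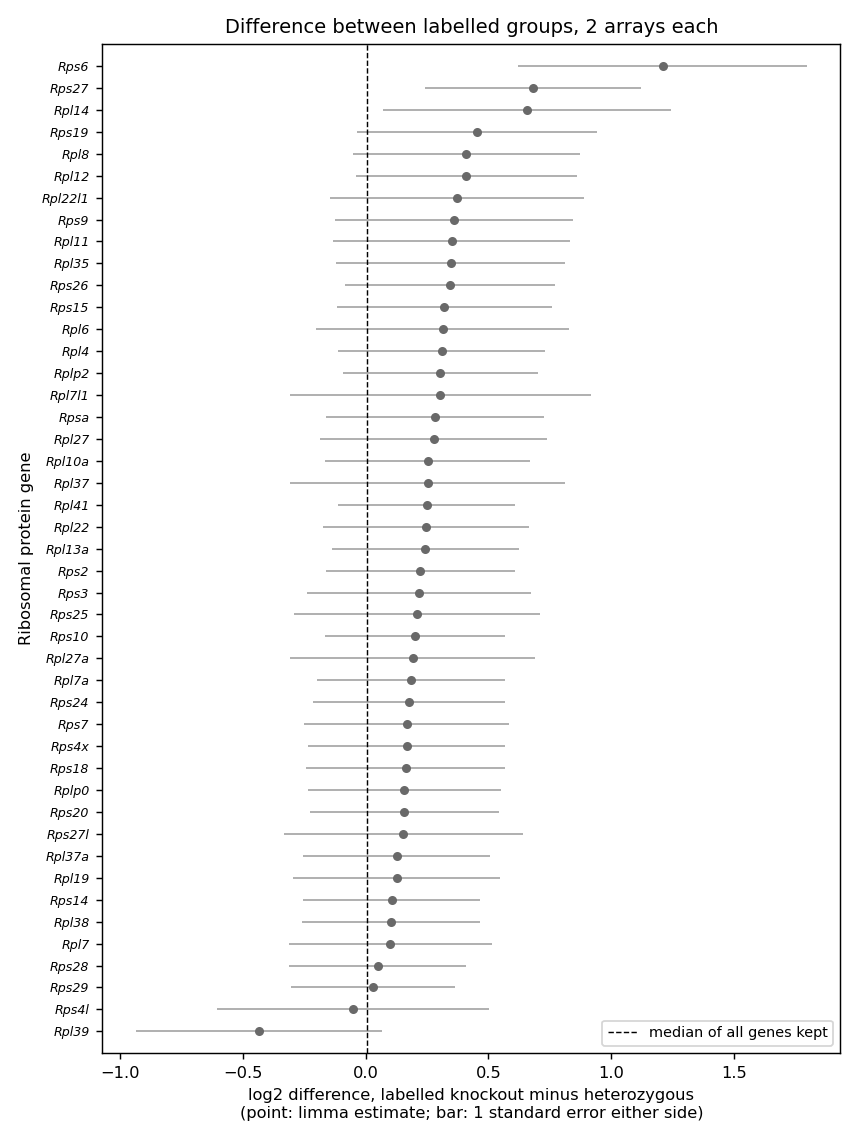
The log2 difference of labelled knockout minus heterozygous arrays (2 each) for the 45 genes kept, as the limma estimate with 1 standard error on either side, and the median of all genes kept as a dashed line. The bars of 42 genes reach past 0, Rps6 has the highest value at 1.21 and Rpl39 the lowest at −0.44.

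Among proteins of the small subunit, Rps6, the target of S6 kinases, stood furthest apart. Its probe set had 4.33 and 10.5 on the heterozygous and 20.9 and 12.4 on the knockout arrays. Both knockout arrays lay above both heterozygous ones, with means of 7.42 ± 4.37 (heterozygous) and 16.6 ± 5.97 (knockout; SD, n = 2 each), and the difference of 1.21 with a standard error of 0.59 did not pass (limma, adjusted p = 0.999868). Knockout 1 had 4.81 times the signal of heterozygous 1. A second probe set of Rps6 was under the array median on all arrays, and the gene also stands on a probe set with several genes whose mean signal was 408.

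Rps27, a zinc-binding protein of the small subunit, had 1.55 and 1.90 on the heterozygous and 3.82 and 2.27 on the knockout arrays. Its groups did not overlap either, with means of 1.73 ± 0.244 and 3.05 ± 1.10 and a difference of 0.68 (standard error 0.44, limma, adjusted p = 0.999868), but all 4 signals were near the array median. Rps25, which serves initiation at internal entry sites, had 2.88, 5.37, 6.37 and 3.31 and followed the common order of arrays.

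Rps19, mutated in Diamond-Blackfan anaemia, had 135 and 219 on the heterozygous and 356 and 156 on the knockout arrays. Knockout 1 stood at 2.63 times heterozygous 1, and the labelled means of 177 ± 59.4 and 256 ± 141 (SD, n = 2 each) differed by 0.46 (standard error 0.49, limma, adjusted p = 0.999868). Rps26, at the messenger exit site, had 208, 274, 419 and 220 in that order, and Rps9, at the messenger entry, had 121, 196, 281 and 139. Rps15 had 175, 255, 356 and 196. All of these were lowest on heterozygous 1 and highest on knockout 1.

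Rpsa, the laminin receptor homologue at the messenger exit, had 211 and 333 on the heterozygous and 462 and 225 on the knockout arrays. Rps3, also at the messenger entry, had 174, 263, 354 and 175. The knockout 1 signal was 2.19 times that of heterozygous 1 for Rpsa and 2.03 times for Rps3, and heterozygous 1 and knockout 2 were nearly equal for both. Rps2, their neighbour at the entry, had 308, 396, 541 and 308, and Rps18, in the head of the subunit, had 267, 398, 486 and 275.

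Several small subunit genes had a narrower range over the arrays. Rps29, another zinc-binding protein, had 483 and 573 on the heterozygous and 649 and 444 on the knockout arrays, a ratio of 1.46 between the highest and the lowest array. Its labelled means were 528 ± 63.1 and 547 ± 145 (SD, n = 2 each), a difference of 0.03 with a standard error of 0.33. Rps28 had 371, 471, 536 and 349, Rps10 had 340.2, 429, 552 and 349.7, and Rps14 had 352, 409.7, 498 and 336. Knockout 1 was highest and heterozygous 2 second in each, with smaller ratios than in Rps19. The lowest array was knockout 2 in Rps29, Rps28 and Rps14 and heterozygous 1 in Rps10.

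Rps4x, the X-linked form of its protein, had 292 and 344 on the heterozygous and 490.0 and 259 on the knockout arrays. Xist, which is made in female cells, had 0.349, 30.3, 0.070 and 60.1 in the same order, so the arrays with and without Xist each held 1 of the higher and 1 of the lower Rps4x signals.

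In the large subunit, the stalk that recruits translation factors was measured by Rplp0, its base, and by Rplp2, one of the acidic proteins on it. Rplp0 had 311 and 414 on the heterozygous and 539 and 298 on the knockout arrays, with labelled means of 362 ± 72.8 and 418 ± 171 (SD, n = 2 each) and a difference of 0.16 (standard error 0.39, limma, adjusted p = 0.999868). Rplp2 had 271, 390.5, 532 and 303, with a difference of 0.30 (standard error 0.40). Knockout 1 was 1.73 times heterozygous 1 for Rplp0 and 1.97 times for Rplp2.

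Rpl14, one of the 8 genes with a TOP start, had 2.85 and 6.69 on the heterozygous and 11.8 and 4.26 on the knockout arrays, and its difference of 0.66 had a standard error of 0.59. Its probe set was dim, knockout 1 stood at 4.12 times heterozygous 1, and the groups overlapped. Rpl12, at the base of the stalk, had 1.93, 3.10, 4.14 and 2.73 and a difference of 0.41 with a standard error of 0.45.

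Rpl8, near the peptidyl transferase centre, had 165 and 247 on the heterozygous and 393 and 184 on the knockout arrays. Rpl11, which forms a particle with the small ribosomal RNA of the large subunit and can bind Mdm2, had 128, 208, 298 and 146. Rpl6 had 133, 231, 349 and 136, a ratio of 2.63 between knockout 1 and heterozygous 1. Rpl4, which lines the exit tunnel, had 247, 349, 515 and 257, and Rpl35, at the tunnel's mouth, had 182, 279.6, 432 and 191. Knockout 1 was the highest and heterozygous 1 the lowest array for all 5 of these.

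Rpl38 and Rpl41, small proteins of the large subunit, had 366, 466, 557 and 353 for the former and 341, 428, 561 and 368 for the latter. Rpl7a had 310.0, 409, 526 and 311. Rpl19 had 223, 296, 376 and 209, Rpl13a had 315, 380.2, 534 and 314, and Rpl7 had 241, 307, 390.2 and 217. In Rpl38, Rpl19, Rpl13a and Rpl7 knockout 2 was the lowest array, and in Rpl41 and Rpl7a it was heterozygous 1.

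The subunits are given side by side. The 24 large subunit genes kept had a median labelled difference of 0.25, 23 of them higher, and the 21 small subunit genes 0.20, with 20 higher. Between knockout 1 and heterozygous 1 the medians were 0.90 and 0.86. The 8 genes with a TOP start had a median of 1.06 (0.61 to 2.19) on that scale and the 31 others with a promoter window 0.90 (−0.67 to 1.40), ranges that overlap.

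Paralogs were looked at beside their parent genes. Rpl22l1, which can take the place of Rpl22, had 106 and 173 on the heterozygous and 269.5 and 114 on the knockout arrays, and Rpl22 had 205, 285, 373 and 219.5. Both followed the common order, with ratios of knockout 1 to heterozygous 1 of 2.55 and 1.82. Rpl7l1 had 10.7, 19.4, 27.3 and 11.7, a ratio of 2.55 against 1.62 for Rpl7.

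Rps27l, a p53-responsive paralog of Rps27, had 99.3 and 187 on the heterozygous and 185 and 124 on the knockout arrays. It was the only one of the 35 bright members in which knockout 1 was not the highest array. Its other probe sets had 102, 183, 185 and 123 and 85.8, 147, 158 and 104, in which heterozygous 2 and knockout 1 were again close.

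Rps4l and Rpl39 ran against the rest. Rps4l, a paralog of Rps4x, had 32 and 26.9 on the heterozygous and 23.4 and 34.2 on the knockout arrays. Rpl39, a short protein of the exit tunnel, had 8.05, 9.16, 4.94 and 7.94. Knockout 1 was the lowest array for both and for no other member kept (20.7% of all genes kept), and the labelled groups of Rpl39 did not overlap (means 8.61 ± 0.788 and 6.44 ± 2.12, SD, n = 2 each, a difference of −0.44, standard error 0.50, limma, adjusted p = 0.999868). Rpl39 also stands on a probe set with several genes whose mean signal was 486. Rpl27a, with 7.33, 7.43, 10.1 and 7.09, was nearly level on 3 arrays, and Rpl37 had 30.3, 44.9, 55.8 and 34.8.

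Probe sets of 1 gene mostly shared a direction, and their ratios differed. Of the 104 member probe sets, 94 were kept, 91 of them higher by label on the knockout arrays and 85 highest on knockout 1. Among all genes kept, by 1 probe set each, these shares were 50.5% and 42.6%. Among 20 genes with several kept probe sets, all were on the same side by label for 19, and the exception was Rps18, whose dimmest kept probe set had a mean of 0.988. Between knockout 1 and heterozygous 1 all were on the same side for 17 of the 20, and the exceptions were Rps10, Rps18 and Rps24. The ratio of knockout 1 to heterozygous 1 differed between probe sets of the same gene. Of 18 genes with at least 2 probe sets of signal 20 or more, the brightest had the smallest ratio in 13, a cutoff chosen after the values were seen, and the exceptions were Rpl27, Rpl35, Rps20, Rps27l and Rps9.

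Rpl13a is an example. Its 4 probe sets, from bright to dim, had means of 386, 209, 97.9 and 47.6 and ratios of 1.69, 2.04, 2.86 and 3.58. The 3 of Rpl7 had means of 289, 252 and 89.9 and ratios of 1.62, 2.33 and 3.28. In Rps10 the ratio reached 6.38, on a probe set with 47.0 and 239.9 on the heterozygous and 300.0 and 103 on the knockout arrays. The 38 kept probe sets ending in _x_at, which may bind related transcripts such as pseudogenes, had a median labelled difference of 0.19, all 38 higher, and the 26 ending in plain _at had 0.27, 23 higher.

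**Figure D4:**
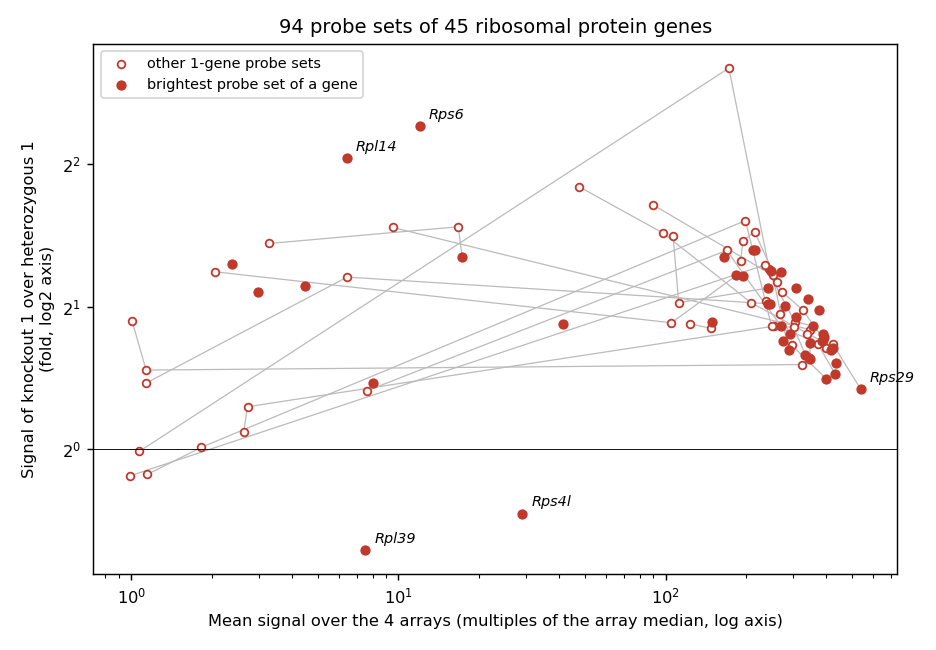
Ratio of the signal of knockout 1 to heterozygous 1 (log2 axis) against mean signal over the 4 arrays (log axis) for the 94 kept probe sets, with grey lines joining probe sets of 1 gene. The ratio of Rps29, the member with the highest signal, is 1.34, and 5 probe sets lie below 1, those of Rps4l (0.732) and Rpl39 (0.613) and a dim one each of Rps10, Rps18 and Rps24.

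Most other genes of protein synthesis were also highest on knockout 1, as were 42.6% of all genes kept. Initiation factor genes were taken by the symbol Eif and a number. That list therefore also holds regulators, the kinases Eif2ak1, Eif2ak2 and Eif2ak3 and the binding proteins Eif4ebp1, Eif4ebp2 and Eif4enif1. The Y-linked Eif2s3y, with 12.1, 0.256, 24.1 and 0.051, is in it too and counts among the genes highest on knockout 1. Of 76 mitochondrial ribosomal protein genes, 65 were highest on knockout 1, of 45 kept initiation factor genes 37, and of 12 elongation and release factor genes all 12. Heterozygous 2 came second and the other arrays lower for 65, 36 and 11 of them (34.8% of all genes kept), and for 47, 23 and 9 after quantile normalization (20.3%). By label, 72 of 76, 34 of 45 and 11 of 12 had a higher mean on the knockout arrays (50.5% of all genes kept). Their medians were 0.25, 0.23 and 0.34, and none passed the adjusted threshold. The counts of these lists were not taken again with an array left out, as those of the members were. The lists were chosen with earlier results of these data known, and Eif5a stood in both factor lists. Quantile-normalized medians of knockout 1 minus heterozygous 1 were 0.64, 0.67 and 0.83, next to 0.44 for all 45 cytoplasmic ribosomal proteins and 0.74 for the 10 of them with a mean signal under 100. The probe sets of these lists were dimmer than those of most members, with median signals of 15.4, 23.1 and 16.2 on heterozygous 1, and whether the lists differ from the members was not tested.

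Mrpl51, of the large mitochondrial subunit, had 71.7 and 122 on the heterozygous and 124 and 74.4 on the knockout arrays. Labelled differences in that list ran from −0.11 for Mrpl33 to 0.57 for Mrps35. Among initiation factors, Eif5a, now regarded as an elongation factor, had 149.7, 283, 335 and 174, and differences ran from −0.40 for Eif5a2 to 0.76 for Eif2b3, a subunit of the exchange factor of Eif2. Eef1a1, which brings aminoacyl-tRNA to the ribosome, had 512, 494, 604 and 405, a narrow range with a difference of −0.02, and Tsfm, a mitochondrial elongation factor, had the highest difference of its list at 0.60.

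All 50 genes of ribosome biogenesis, which make and assemble the subunits, were highest on knockout 1, and 48 after quantile normalization. Among all genes kept these shares were 42.6% and 35.5%. By label, 49 had a higher mean on the knockout arrays (50.5% of all genes kept), with a median of 0.59. Knockout 1 minus heterozygous 1 had a median of 1.75, against 0.87 for the ribosomal proteins and 0.40 for all genes kept, and 1.25, 0.44 and 0.03 after quantile normalization. The biogenesis probe sets were dim, with a median signal of 4.96 on heterozygous 1, and the 10 members under 100, whose median there was 5.83, had 1.03 with deposited and 0.74 with quantile-normalized values. Nop58, a core protein of box C/D particles, had 3.13 and 4.82 on the heterozygous and 19.6 and 3.87 on the knockout arrays, the highest labelled difference of the list at 1.12, and Sbds the lowest at −0.03. Eif6, which keeps the subunits apart, had 77.5, 129, 178 and 77.4. Proliferation genes had a median of 1.90 on the same scale, over 8 genes kept. Whether lists differ was not tested.

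Other messengers known for a TOP start included 17 measured genes, 10 of which stood in another list as well. Of the 17, 16 were highest on knockout 1 (42.6% of all genes kept). By label, 15 had a higher mean on the knockout arrays (50.5% of all genes kept), with a median of 0.19. The order of knockout 1, then heterozygous 2, then the others held for 13 (34.8% of all genes kept). After quantile normalization it held for 5 (20.3%). Tpt1, the translationally controlled tumour protein, had 546, 507, 634 and 463. Nap1l1 had the highest labelled difference at 0.66 and Vim, of mesenchymal cells, the lowest at −0.22. Fau, which encodes a ubiquitin-like protein fused to a small subunit protein, was the only ribosomal protein gene under another symbol with a 1-gene probe set. It had 295, 357, 378 and 302. After quantile normalization knockout 1 was its lowest array and knockout 2 its highest, with log2 differences from heterozygous 1 of −0.08 and 0.18.

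**Figure D5:**
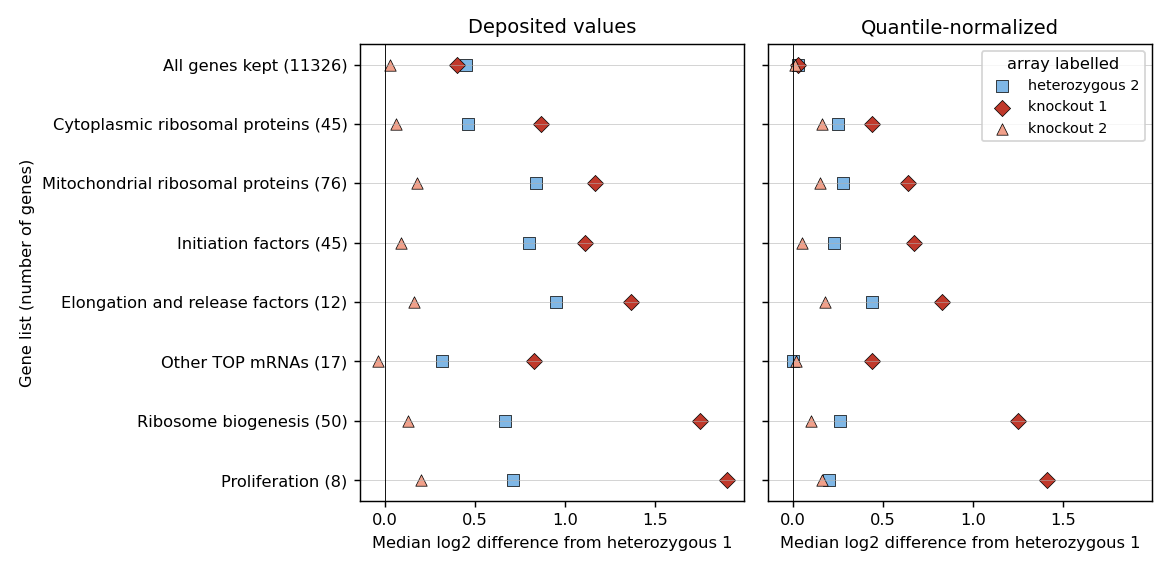
Median log2 difference of heterozygous 2, knockout 1 and knockout 2 from heterozygous 1 for each gene list, with the number of genes in parentheses, from deposited (left) and quantile-normalized values (right). On knockout 1 the ribosomal proteins lie at 0.87 and 0.44, between all genes kept (0.40 and 0.03) and ribosome biogenesis genes (1.75 and 1.25).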

How the data were processed

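Per the submitters' processing notes the deposited intensity values were made with MAS5, with no version given in the sources used here, from biotin-labelled total RNA. The array medians of 0.996 to 0.998 in the deposited table show a rescaling that the labels do not state. The table held 45037 probe sets, of which the platform annotation named 34945 for 1 gene, 932 for several and 9160 for none, and the Entrez identifiers of all 48 members were found in the RefSeq table. Values were transformed as log2(value + 0.321), the pseudocount being the 25th percentile, so log2 differences of dim probe sets are understated. Ratios between arrays were taken from the signals without the pseudocount. Probe sets with a mean of at least 0.983, the median of means, were kept. The labelled groups, 2 arrays each, entered a linear model fit (limma 3.58.1, R 4.3.3, eBayes with trend) with Benjamini-Hochberg adjustment over 22519 probe sets. The fit was also run on simulated data with independent errors and with changes larger than any member difference. That run therefore says nothing about differences of the members' size. An exact permutation test of 2 against 2 cannot go below p = 0.333 and was not used. The number of arrays limits the precision. The members and gene lists were chosen with earlier results of these data known. By rule, values were given for the 8 brightest and 5 dimmest members, the 6 highest and 6 lowest differences, the 5 largest ratios between arrays, the stalk proteins, Rpsa, paralogs with their parent genes, and up to 3 genes of each related list. Other members were chosen for their roles after their values were seen, as were Eif6, Fau, Xist, Eif2s3y and the single markers of other cells. Alternatives were other pseudocounts, filters, scalings, variance models, a replicate block, each array left out, and other probe set choices. One further promoter motif that was searched is not reported here.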

Additional observations from a re-analysis of the deposited data

How the results depend on the processing

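The median log2 difference of the ribosomal protein genes was 0.24 and stayed between 0.19 and 0.28 under the other pseudocounts, filters, scalings and probe set choices, with the lower end from quantile normalization, and 38 to 44 genes were higher by label, of 40 to 48 compared. With 1 array left out the median ranged from −0.19 (without knockout 1) to 0.63 (without knockout 2), and the count from 4 to 43. The log2 difference of Ap1m2, −0.28, ranged from −1.79 without knockout 2 to 1.22 without knockout 1, and it was 0.78 without heterozygous 1. No probe set was called in the comparison described, under the 0.10 threshold, or under any other setting except the brightest 25% (1 called) and the fits with 1 array left out, which ranged from 0 to 240, with 24 without knockout 1 and 240 without knockout 2. No representative probe set of a member passed in any of the 16 fits, where its lowest adjusted p was 0.522 (limma). The labels give both groups replicates 1 and 2, but same-numbered arrays deviated in opposite directions (correlation −0.511 over 22519 probe sets), and the labels do not say what arrays of one number share. They were alike in Xist (0.349 and 0.070 on the arrays numbered 1, 30.3 and 60.1 on those numbered 2) and in the Y-linked Eif2s3y (12.1 and 24.1, 0.256 and 0.051). The number thus coincides with these transcripts of female and of male cells, and so with sex. With the replicate number as a block, 0 probe sets passed and 145 had an unadjusted p under 0.05, the member median remaining 0.24, with 43 genes higher, and Ap1m2 −0.28. A block of crossed pairs, added after the data were seen, gave 0 and 1246. Depth has no equivalent here, and signals near the array median of the dim probe sets limit what they show.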

Other observations

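Some ribosomal protein probe sets lay outside the choice of members. Rps3a1, a small subunit gene whose symbol the naming rule leaves out, had 338 and 432 on the heterozygous and 571 and 301 on the knockout arrays, the same order of arrays as most members. Of 110 probe sets that list a ribosomal protein gene beside other genes, 101 were kept, and 96 of these were highest on knockout 1 (42.6% of all genes kept were). Their median log2 difference between knockout 1 and heterozygous 1 was 0.91, next to 0.87 for the members, and their labelled median 0.26.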
